A study of Mus musculus with 70 samples.

Results

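Between day 4 and day 7 of doxycycline, mouse embryonic fibroblasts with an inducible, constitutively active MEK1 (caMEK1) had lower levels of 9 of 24 mitosis, 5 of 30 DNA replication and 6 of 20 ribosome biogenesis genes tested. Of 11 MHC class I genes 3 were higher, as were 3 of 8 complement genes, 4 of 31 fibrillar matrix genes and 6 of 29 lysosome genes. Of all 11347 genes tested 1.45% were lower and 2.16% higher. Over the same days under active MKK6, some replication, ribosome biogenesis, matrix and lysosome genes passed in these directions. No mitosis, MHC class I or complement gene did. Under caMEK1 the 12 macrophage markers also summed higher on average at day 7. None of the 10 markers tested passed, and 5 did with the replicate number as a block. The part of the markers in these rises was not tested. The list counts above depended on single libraries. Leaving out 1 library brought the mitosis, replication and ribosome biogenesis falls down to 1 each at the lowest. The rises came down to 1 for MHC class I, 2 for complement and 0 for matrix and lysosome. With a filter at 5 FPKM the complement list had 0 rises. The comparison took 6 of the 70 libraries of the series, 3 from day 7 and 3 from day 4, and every gene of the deposited FPKM table on the log2(FPKM + 1) scale. FPKM counts fragments per length of transcript and per depth of the library. The members were chosen by group label alone, and no measured value entered the choice.

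The fibroblasts were C57BL/6 cells from E13.5 embryos, labelled male and of genotype caMEK1. Both groups received doxycycline at 2 µg/mL, so the controls of this comparison carried the active kinase and the drug as well. The labels give untreated caMEK1 fibroblasts at day 2 only and say that cells without doxycycline were passaged, so days of kinase, days of doxycycline and days in culture cannot be told apart. Fibroblasts with inducible, constitutively active MKK6 (caMKK6), also on doxycycline at day 4 and day 7 with 3 libraries each, were the comparator. The labels give no promoter for the transgenes, no clone and no statement that the 3 replicates were separate embryos or cultures. The p-values measure the spread within groups, pooled over 24 fibroblast libraries in 8 groups, and that spread may be technical. The main test does not use the replicate number as a block, and counts with that block are given beside it. In bulk samples fewer cells of a type and less RNA per cell cannot be told apart.

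MEK1 is the kinase that phosphorylates ERK, and ERK signalling drives growth and cell division at moderate strength. Sustained strong ERK signalling makes primary fibroblasts stop dividing, a state called oncogene-induced senescence. Senescent cells are known for high CDK inhibitors, low proliferation genes, an enlarged lysosomal compartment and the secretion of cytokines, proteases and growth factors.

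Promoters of 6 genes are shown because their groups carry the pattern described below. Bub1, Ube2c, Top2a and Rrm2 fell and belong to the mitosis and replication genes. Mcoln1 rose and encodes a lysosomal channel, and B2m rose and encodes the light chain of MHC class I. Each sequence is the 250 bases before the RefSeq start on GRCm38.p6, 5′ to 3′ on the gene's strand. Capitals mark CCAAT boxes (ATTGG on either strand) and the cell cycle homology element (TTTGAA on either strand) in the first 4, CACGTG in Mcoln1, and in B2m the interferon response letters, GAAA followed after 2 bases by GAAA. They lie at chr2:127831860-127832109 (minus strand, Bub1), chr2:164769679-164769928 (plus, Ube2c), chr11:99024190-99024439 (minus, Top2a), chr12:24708004-24708253 (plus, Rrm2), chr8:3500269-3500518 (plus, Mcoln1) and chr2:122147437-122147686 (plus, B2m).
Bub1: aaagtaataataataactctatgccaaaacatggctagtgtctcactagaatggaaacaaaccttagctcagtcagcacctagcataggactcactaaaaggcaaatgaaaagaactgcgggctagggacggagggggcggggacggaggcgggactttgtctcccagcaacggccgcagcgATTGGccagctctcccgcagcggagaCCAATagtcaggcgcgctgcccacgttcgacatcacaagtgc
Ube2c: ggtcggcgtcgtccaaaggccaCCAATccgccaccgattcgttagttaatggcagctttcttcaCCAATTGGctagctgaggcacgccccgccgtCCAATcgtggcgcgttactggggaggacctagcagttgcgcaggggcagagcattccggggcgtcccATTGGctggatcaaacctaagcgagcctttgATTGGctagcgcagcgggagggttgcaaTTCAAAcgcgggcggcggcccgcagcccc
Top2a: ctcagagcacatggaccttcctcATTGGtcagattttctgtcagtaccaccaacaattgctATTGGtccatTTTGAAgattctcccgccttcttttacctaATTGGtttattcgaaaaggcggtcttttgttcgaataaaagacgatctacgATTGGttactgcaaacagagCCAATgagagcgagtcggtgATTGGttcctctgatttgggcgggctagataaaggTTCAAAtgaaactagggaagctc
Rrm2: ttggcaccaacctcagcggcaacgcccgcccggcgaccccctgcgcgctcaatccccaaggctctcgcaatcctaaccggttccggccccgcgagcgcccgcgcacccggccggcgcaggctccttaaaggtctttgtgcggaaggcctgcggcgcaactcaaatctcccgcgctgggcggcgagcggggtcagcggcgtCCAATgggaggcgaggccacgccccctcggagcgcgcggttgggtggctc
Mcoln1: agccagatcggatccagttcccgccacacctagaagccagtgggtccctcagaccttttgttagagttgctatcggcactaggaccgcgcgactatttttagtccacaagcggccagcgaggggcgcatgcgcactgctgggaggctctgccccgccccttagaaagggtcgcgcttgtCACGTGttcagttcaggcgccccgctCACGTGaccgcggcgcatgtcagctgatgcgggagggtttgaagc
B2m: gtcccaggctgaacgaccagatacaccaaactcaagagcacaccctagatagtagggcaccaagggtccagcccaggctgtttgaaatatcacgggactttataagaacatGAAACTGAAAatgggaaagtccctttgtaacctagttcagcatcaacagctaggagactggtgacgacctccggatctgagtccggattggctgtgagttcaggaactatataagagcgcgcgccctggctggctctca

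The windows of Ube2c and Top2a held 6 CCAAT boxes each, counting a pair that overlaps in Ube2c, with 1 and 2 TTTGAA elements. Bub1 held 2 CCAAT boxes and Rrm2 held 1, and neither had TTTGAA in this window. Of the 21 mitosis genes with a promoter in the table, 18 (85.7%) held ATTGG and 9 (42.9%) held TTTGAA, against 37.5% and 18.3% of all 27025 genes. Of 23 DNA replication genes, 14 (60.9%) held ATTGG and 5 (21.7%) held the E2F letters TTTNGCGC, which 1.31% of all genes hold. CACGTG, the core of the element bound by lysosomal regulators of the MiT family, was in 6 of 21 lysosome genes (28.6%) and in 6.86% of all genes. The interferon response letters were in 2 of 9 MHC class I genes and 6 of 14 interferon response genes, against 3.46% of all genes. Lists with no called gene held some of these letters as often, ATTGG in 94.1% of 17 ER chaperones and 92.3% of 13 sterol synthesis genes, and CACGTG in 30.8% of 13 lamin and chromatin genes and 50.0% of 8 glucocorticoid targets. The interferon response letters were in 22.2% of 18 cytosolic ribosomal protein genes, the same share as in MHC class I. The E2F letters were in 22.2% of 9 MHC class I genes. They were also in 18.2% of 11 Wnt pathway genes and 16.7% of 6 CDK inhibitors, lists with no called gene. TTTGAA was in 33.3% of 12 BCL2 family genes and 30.8% of 13 lamin and chromatin genes. A match describes letters in a window and is not a binding site.

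The Xenopus MEK1 transgene was read first, since its level checks the labels. Its FPKM values were 705, 719 and 906 at day 4 and 500, 460 and 645 at day 7, against 1.94, 3.22 and 4.04 in untreated cells and 1008 to 1169 at day 2. Every doxycycline library of this genotype was far above the untreated ones, as labelled. All 3 day 7 values lay below all 3 day 4 values. The mean was 777 ± 112 (SD, n = 3) at day 4 and 535 ± 97.6 (SD, n = 3) at day 7, a log2 difference of -0.54, with a two-sided exact permutation p of 0.1, the smallest that 3 against 3 allows. The mCherry reporter read 679, 663 and 828 FPKM at day 4 and 475, 396 and 581 at day 7. Human MKK6 was listed at 0.0618 FPKM in day 7 replicate 1 and at 0 in the other 5 libraries. The mouse's own Map2k1 was 57.0 ± 2.54 FPKM at day 4 and 54.9 ± 3.57 at day 7 (SD, n = 3, adjusted p = 0.66), and Map2k2 and Mapk3 did not pass the test either.

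The 6 libraries held 11992415 to 17763531 reads, and 10498 to 10741 genes reached 1 FPKM in each. Their log2 values correlated across genes at r of 0.979 to 0.995. Day 7 replicate 3 was closer to day 4 replicate 3 (r = 0.992) than to the other day 7 libraries (0.981 and 0.987). The 12 fibroblast markers summed to 1490 to 1607 FPKM at day 4 and 1457 to 1639 at day 7, erythroid markers summed to at most 0.777 FPKM, and epithelial markers, mainly Krt18, summed to 233 to 331 and 226 to 280. The 12 macrophage markers summed to 65.5, 118 and 133 FPKM at day 4 and 113, 275 and 274 at day 7, most of it Lyz2. Untreated cells had 28.7 to 51.5. Cx3cr1 was at 0 in day 4 replicate 1 and day 7 replicate 2. None of the 10 macrophage markers tested passed, and 5 did with the replicate number as a block.

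Of 11347 genes tested with limma (Benjamini-Hochberg adjusted p below 0.05), 409 changed (3.6%), 245 higher (2.16%) and 164 lower (1.45%) at day 7. The changes were small, with a median size of 0.45 on the log2 scale, and 28 genes changed by 2-fold or more. The day 4 and day 7 values did not overlap for 394 of the 409, and for 2689 of all genes tested (23.7%). With the replicate number as a block, 1510 genes passed (13.3%), 913 higher and 597 lower, including all 409 in the same direction. The split depended on the scaling, since with each library scaled to a common median 165 were higher (1.45%) and 262 lower (2.31%), 3.76% in all. Without 1 library the number fell to 142 (day 4 replicate 1), 125 (day 4 replicate 2) and 118 (day 7 replicate 2), and was 304 to 387 without any of the other 3. In all 6 of these fits 84 calls were made.

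**Figure D1:**
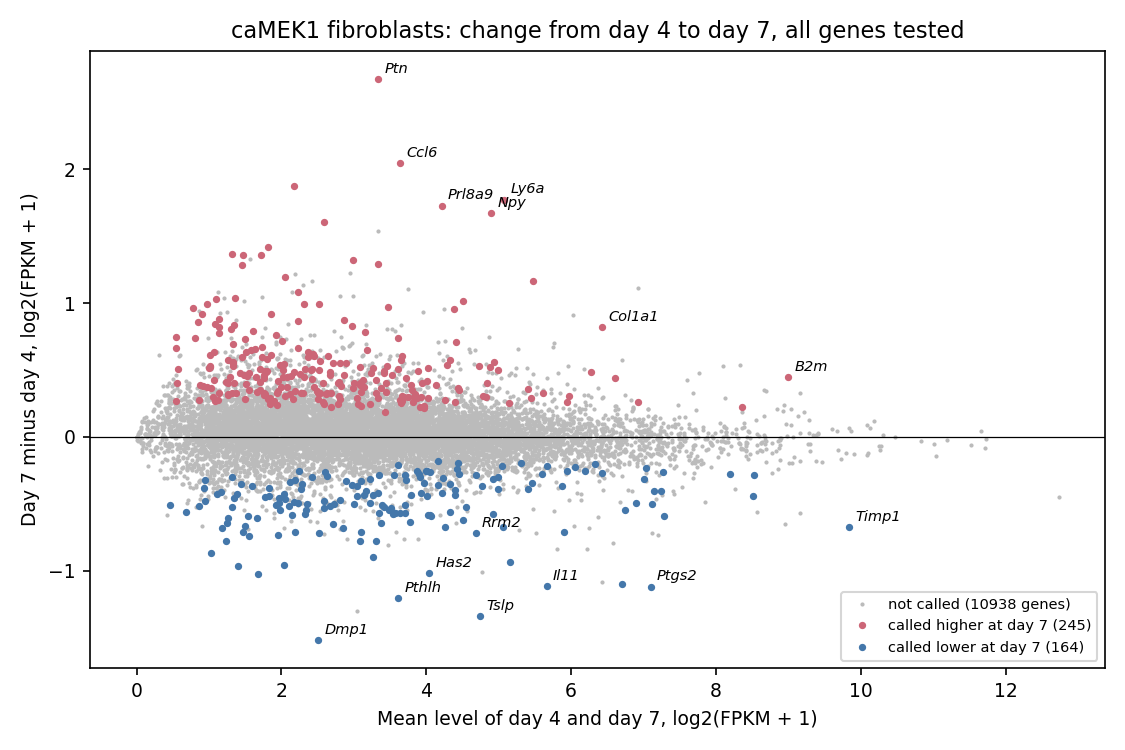
Change from day 4 to day 7 (log2(FPKM + 1), vertical axis) against the mean level of both days (horizontal axis) for 11347 genes, with the 245 called higher and 164 called lower in colour. Most called genes changed by less than 1 on the log2 scale, and Ptn (2.68) and Dmp1 (-1.52) mark the ends.

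Cell division genes fell together. Of the 24 mitosis genes, all tested, 9 fell and none rose, beside 1.45% of all genes lower, and all 24 had a negative difference with a median of -0.49 against 0.033 for all genes. With the block 20 of the 24 fell, beside 5.26% of all genes. Bub1, a spindle checkpoint kinase, read 8.42, 7.38 and 5.79 FPKM at day 4 and 5.02, 4.21 and 3.45 at day 7 (log2 difference -0.65 ± 0.13 SE, adjusted p = 0.01). Every day 7 library was below every day 4 library. Ube2c, which hands ubiquitin to targets of the anaphase-promoting complex, went from 16.3, 12.8 and 10.6 to 9.29, 9.36 and 6.76 FPKM (-0.58 ± 0.13, adjusted p = 0.022). The mitotic kinesin Kif20a (-0.57, adjusted p = 0.0093) and the topoisomerase Top2a (-0.57, adjusted p = 0.023) moved by like amounts. Mki67, the common proliferation marker, was 6.67, 5.32 and 4.89 FPKM at day 4 and 3.64, 5.92 and 3.56 at day 7 and did not pass (-0.32 ± 0.17, adjusted p = 0.3), its day 7 replicate 2 lying among the day 4 values. The number of mitosis genes that fell was 1, 3, 16, 9, 7 and 4 without day 4 replicate 1, 2 or 3 and day 7 replicate 1, 2 or 3, and 15 with median scaling. Without day 4 replicate 1 the calls of Bub1, Ube2c, Kif20a and Top2a were lost, without day 4 replicate 2 those of Bub1, Ube2c and Top2a, and without day 7 replicate 3 those of Ube2c and Top2a (adjusted p up to 0.12).

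Replication genes moved the same way. Of 30 tested, 5 fell and none rose, beside 1.45% of all genes lower, and all 30 had a negative difference with a median of -0.34. With the block 19 fell, beside 5.26%. Rrm2, the small subunit of ribonucleotide reductase, read 35.5, 33.0 and 27.3 FPKM at day 4 and 18, 20.7 and 18.3 at day 7 (-0.72 ± 0.11 SE, adjusted p = 0.00071). Its day 7 values lay close together, well under the lowest day 4 value, and the call held without any 1 of the 6 libraries. Its level had been 130 FPKM in untreated cells and 89.4 at day 2. The replicative helicase genes Mcm5 (-0.57, adjusted p = 0.044), Mcm3 (-0.55, adjusted p = 0.029) and Mcm4 (-0.44, adjusted p = 0.013) fell too. Leaving out 1 library ended the call of Mcm4 for day 4 replicates 1 and 2, and of Mcm5 and Mcm3 for every library but day 4 replicate 3 (adjusted p up to 0.21). Outside these lists Cep55, needed for the final cut between daughter cells, fell from 7.42, 5.96 and 5.82 FPKM to 3.72, 3.44 and 3.27 (-0.72, adjusted p = 0.00066), and the mitotic kinase Pbk from 11.5, 9.49 and 8.75 to 7.28, 5.91 and 4.08 (-0.71, adjusted p = 0.047). Cep55 passed without any 1 library, and Pbk only without day 7 replicate 1. Of 14 lamin and chromatin genes none passed, among them Lmnb1, which senescent cells are known to lose, at 14.7 ± 1.76 and 11.2 ± 1.58 FPKM (SD, n = 3, adjusted p = 0.12, 0.018 with the block). Cbx5, Ezh2 and Hmgb2 of the same list fell with the block as well (adjusted p = 0.021 to 0.035).

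Genes that build ribosomes were lower. Of 20 ribosome biogenesis genes 6 fell and none rose, beside 1.45% of all genes lower, and all 20 had a negative difference with a median of -0.20. With the block 10 fell, beside 5.26%. Nop58, a core protein of the particles that methylate ribosomal RNA, read 17.6, 16.3 and 16.1 FPKM at day 4 and 12.4, 11.8 and 12.5 at day 7 (-0.42 ± 0.06 SE, adjusted p = 0.00066). Both groups were tight and far apart, and the call held without any 1 library. Its partners Nop56 (-0.30, adjusted p = 0.047) and Fbl, the methyltransferase (-0.28, adjusted p = 0.038), and the pseudouridine synthase Dkc1 (-0.36, adjusted p = 0.031) fell by smaller amounts. These 3 calls were each lost without day 4 replicate 1 or 2 or day 7 replicate 2 or 3 (adjusted p up to 0.22). None of the 27 cytosolic ribosomal protein genes, 20 proteasome genes, 20 oxidative phosphorylation genes or 21 sterol synthesis genes passed, and the lists' medians were -0.03, -0.12, -0.048 and -0.21. With the block 5 sterol genes and 2 proteasome genes fell.

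**Figure D2:**
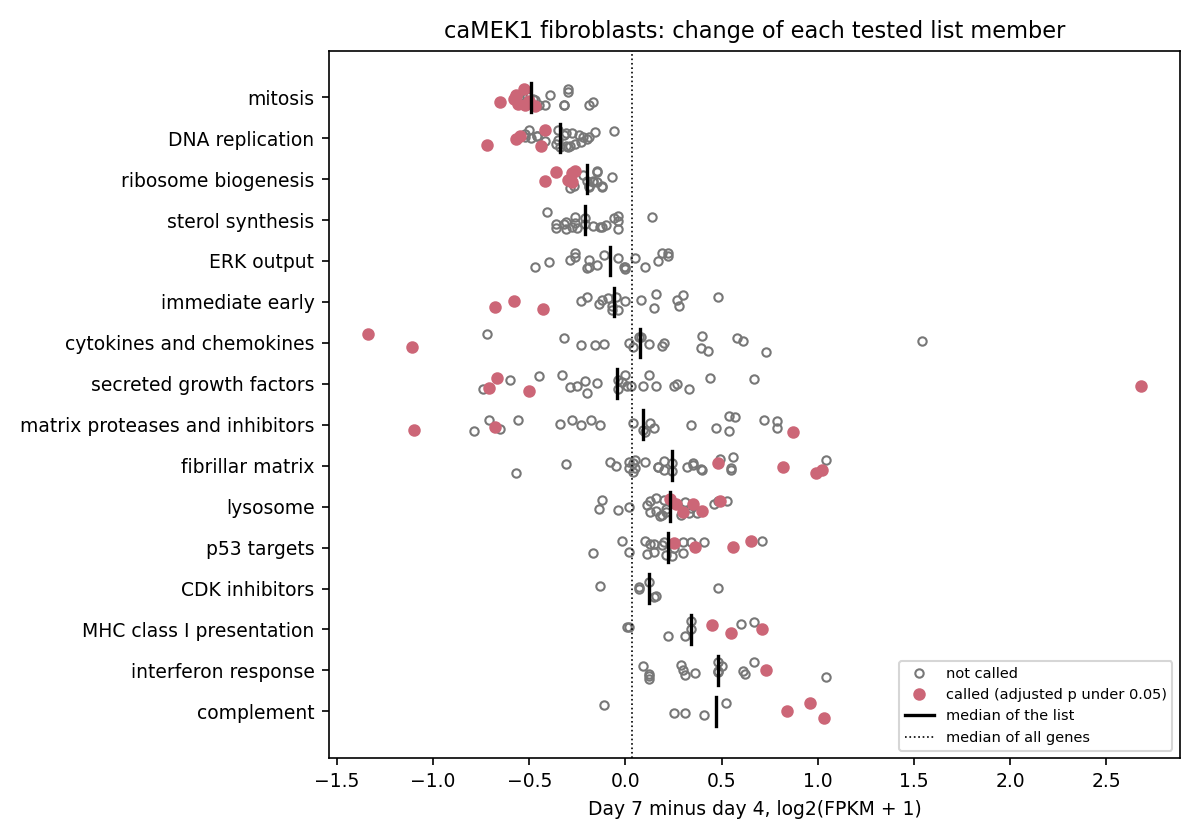
Day 7 minus day 4 (log2(FPKM + 1), horizontal axis) of each tested member of 16 gene lists, with called members filled, the median of each list as a black bar and the median of all genes as a dotted line. Every tested mitosis, DNA replication and ribosome biogenesis gene lies below 0, and every tested MHC class I and interferon response gene lies above it.

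The largest falls included Dmp1, Tslp, Pthlh and Il11, which encode secreted proteins, and the enzymes Ptgs2 and Has2. Dmp1, an acidic phosphoprotein of bone and dentin matrix (chromosome 5, 104202613 to 104214102, GRCm38), read 9.55, 8.95 and 7.14 FPKM at day 4 and 3.21, 2.26 and 1.66 at day 7 (-1.52 ± 0.13 SE, adjusted p = 3e-06). It was near 0 in untreated cells and 2.57 FPKM at day 2, so day 7 was back at about the day 2 level. Pthlh, the parathyroid hormone-like hormone, went from 14.8, 18.2 and 19.8 to 7.33, 7.37 and 6.44 FPKM (-1.20 ± 0.17, adjusted p = 0.00066). Tslp, an epithelial-type cytokine that acts on dendritic cells, went from 34.7, 39.7 and 50.4 to 15.8, 13.2 and 18.5 FPKM (-1.34 ± 0.24, adjusted p = 0.005). For each of these 3 genes the 2 groups lay far apart, and the call held without any 1 library. No overlap between the days was a condition for naming the largest falls. Il11, an IL-6 family cytokine known for its part in fibrosis, read 85.2, 78.2 and 57.6 FPKM at day 4 and 39.8, 30.0 and 30.3 at day 7 (-1.11 ± 0.29, adjusted p = 0.04), after 133 at day 2 and 4.43 in untreated cells. Its call passed only without day 4 replicate 3 among the fits that left out 1 library (adjusted p up to 0.15).

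Ptgs2, the inducible cyclooxygenase, read 191, 192 and 207 FPKM at day 4 and 67.3, 82.5 and 131 at day 7 (-1.12 ± 0.16 SE, adjusted p = 0.00071). Day 7 replicate 3 was the highest of its group and below all of day 4, as the condition for naming the largest falls required. Has2, which makes hyaluronan, went from 23.4, 26.6 and 17.2 to 10.2, 12.0 and 9.24 FPKM (-1.02, adjusted p = 0.0048), and the protease inhibitor Tfpi2 from 47.0, 57.0 and 40.2 to 19.5, 28.4 and 26.1 (-0.94, adjusted p = 0.0016). Odaph, named for its part in enamel, fell from 13.6, 10.9 and 11.8 to 7.65, 4.64 and 6.01 FPKM (-0.90, adjusted p = 0.0081), and Chrna1, a muscle acetylcholine receptor subunit and the only skeletal muscle marker tested, from 13.6, 11.2 and 11 to 8.10, 5.11 and 6.64 (-0.78, adjusted p = 0.012). Odaph lost its call without day 7 replicate 2, and Chrna1 without that library or day 4 replicate 1 (adjusted p up to 0.08).

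Among all genes 1.45% fell and 2.16% rose, and 5.26% and 8.05% with the block. Of 21 cytokine and chemokine genes tested, Tslp and Il11 were the 2 that fell, and none rose. With the block 4 fell and 2 rose, the latter Cxcl5 and Ccl9 (adjusted p = 0.023 and 0.0019). Il6 was low on both days, at 0.997, 1.01 and 0.0945 FPKM and then 0.844, 0.996 and 0.256 (adjusted p = 0.98), and Ccl2, a monocyte chemokine, averaged 349 and 401 FPKM (adjusted p = 0.88). Of 27 growth factor genes tested 3 fell and 1 rose (6 and 2 with the block). Vegfa, the main angiogenic factor, read 73.4, 81.9 and 70.5 FPKM at day 4 and 46.3, 46.6 and 44.1 at day 7 (-0.71 ± 0.13 SE, adjusted p = 0.0057), every day 7 value being well below day 4, and it passed without any 1 library. The EGF receptor ligand Ereg (41.0 to 25.3 FPKM, -0.67, adjusted p = 0.015) and the activin subunit Inhba (140 to 98.8 FPKM, -0.50, adjusted p = 0.033) fell. Ereg was lost without day 4 replicate 1 or 2 or day 7 replicate 2 (adjusted p up to 0.077), and Inhba without day 4 replicate 2 or 3 or day 7 replicate 1 or 2 (adjusted p up to 0.12). Gdf15 was at most 1.07 FPKM in all 6 libraries. The growth factor that rose was Ptn.

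**Figure D3:**
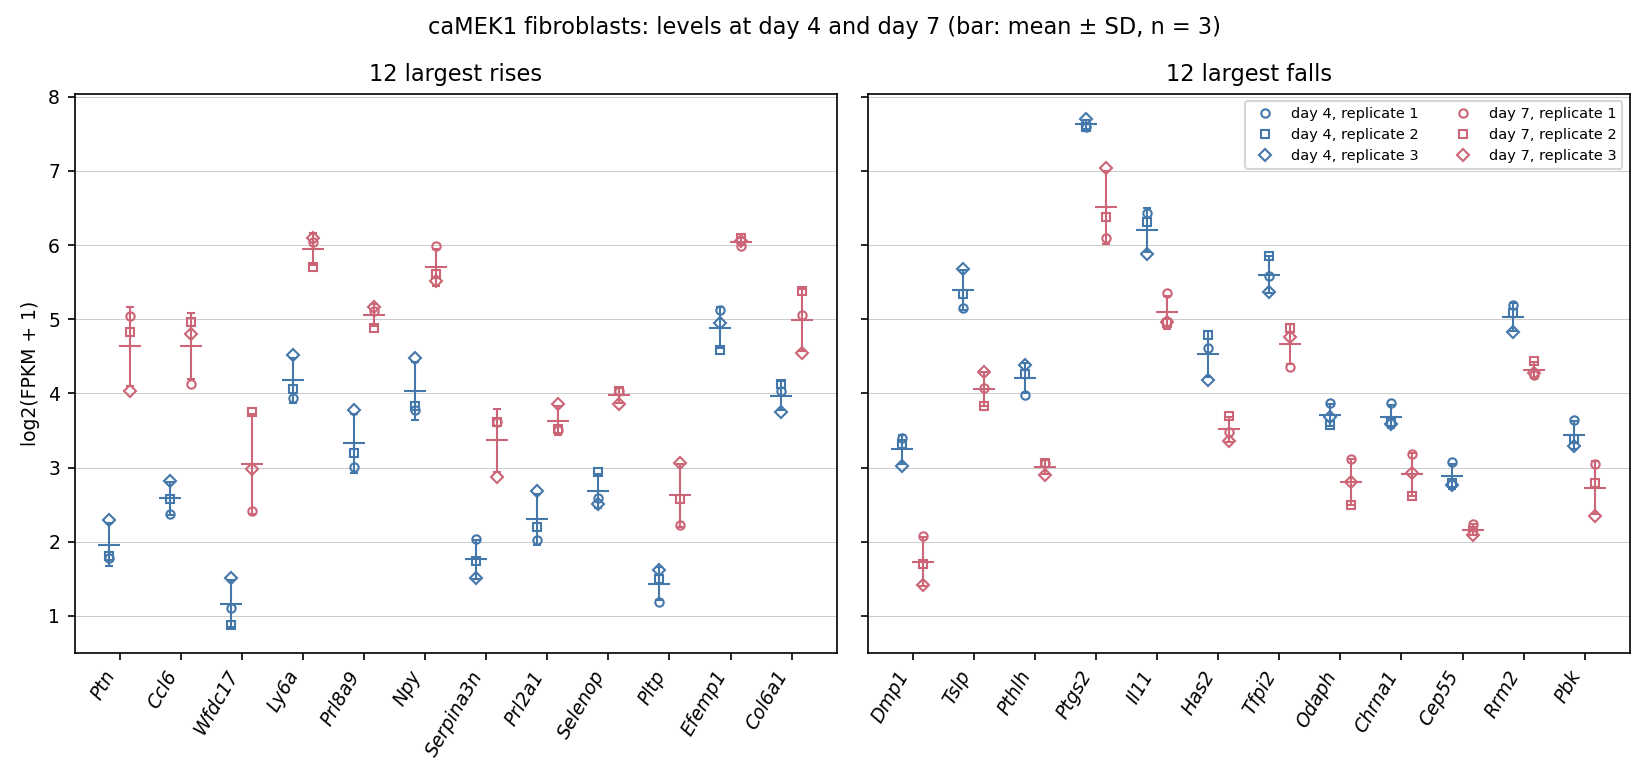
Levels (log2(FPKM + 1), vertical axis) of the 12 largest rises and 12 largest falls in each day 4 (blue) and day 7 (red) library, with marker shape giving the replicate number and bars the mean ± SD (n = 3). The 2 days do not overlap for any of these genes, which was a condition for naming them, and Ptn spans the widest gap.

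Matrix protease genes did not move as 1 group. Of 25 tested, 1 rose and 2 fell (7 and 3 with the block). Among all genes 2.16% rose and 1.45% fell (8.05% and 5.26% with the block). Timp1, a metalloprotease inhibitor, went from 1081, 1193 and 1194 FPKM to 717, 658 and 799 (-0.68 ± 0.17 SE, adjusted p = 0.028), and Mmp19 from 5.45, 4.33 and 3.22 to 10.0, 10.7 and 5.88 (0.87 ± 0.22, adjusted p = 0.033). Leaving out 1 library ended the call of Timp1 for every library but day 7 replicate 3, and that of Mmp19 for day 4 replicates 2 and 3 and day 7 replicates 1 and 2 (adjusted p up to 0.16).

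Mmp3, Crabp1 and Cryab were among the genes with the widest spread between the day 7 libraries, and in all 3 it was replicate 3 that stood apart. Mmp3 read 653, 451 and 154 FPKM at day 7, the retinoid binding protein Crabp1 3126, 2373 and 858, and the small heat shock protein Cryab 31.1, 33.3 and 111. The same replicate number stood apart in the same direction at day 4, with 420 FPKM of Mmp3 against 765 and 552, 1249 of Crabp1 against 2520 and 2260, and 139 of Cryab against 64.2 and 76.3. None of these 3 passed the test between days, and Cryab passed with the block (-0.84, adjusted p = 0.0089).

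Ptn, Ly6a and Efemp1, among the largest rises, were lower at day 2 and day 4 than in untreated cells and higher at day 7 than at day 4. Ptn, the heparin-binding growth factor pleiotrophin (chromosome 6, 36714929 to 36810220, GRCm38), read 2.43, 2.51 and 3.90 FPKM at day 4 and 32.1, 27.3 and 15.4 at day 7 (2.68 ± 0.39 SE, adjusted p = 0.00071). The lowest day 7 library was well above the highest of day 4, no overlap being a condition for naming the largest rises. Untreated cells had 34.1, 38.9 and 51.9 FPKM, and day 2 cells 3.04 to 3.29. Ly6a, the stem cell antigen Sca-1, went from 14.4, 15.7 and 21.9 to 64.9, 50.9 and 67.6 FPKM (1.77 ± 0.24, adjusted p = 0.00045), after 88.4 to 123 in untreated cells and 13.6 to 19.1 at day 2. Efemp1, a fibulin of the elastic matrix, went from 33.9, 22.9 and 29.9 to 62.6, 67.4 and 65.5 FPKM (1.16 ± 0.21, adjusted p = 0.0051), after 97.0 to 153 in untreated cells. These 3 calls held without any 1 library. At day 7 the mean of each was below that of the untreated libraries.

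Of 31 fibrillar matrix genes tested 4 rose and none fell, beside 2.16% of all genes higher, and the median was 0.24. With the block 9 rose, beside 8.05%, and 1 fell. Col6a1, a collagen VI chain, read 15.3, 16.5 and 12.5 FPKM at day 4 and 32.2, 40.5 and 22.3 at day 7 (1.02 ± 0.19 SE, adjusted p = 0.0062), and its partner chain Col6a2 3.20, 3.49 and 2.19 and then 8.61, 9.64 and 3.65 (0.99 ± 0.23, adjusted p = 0.022). In both, day 7 replicate 3 was the lowest of its group and above all of day 4. Col1a1, the main collagen I chain, went from 68.1, 65.9 and 57.5 to 90.8, 133 and 120 FPKM (0.82 ± 0.22, adjusted p = 0.047) and the elastic fibre protein Fbln5 from 6.98 to 10.1 (0.48, adjusted p = 0.041). Untreated cells had 576 ± 99.3 FPKM of Col1a1 and 72.4 ± 7.82 of Fbln5 (SD, n = 3). Without day 7 replicate 2 none of the 31 fibrillar matrix genes passed. Col1a1 and Fbln5 were also lost without any of the 3 day 4 libraries or day 7 replicate 3, and Col6a2 without day 4 replicates 1 or 3 or day 7 replicate 1 (adjusted p up to 0.2). None of the 21 contractile genes passed, while with the block 4 fell (Myh11, Smtn, Des and Actg2, adjusted p = 0.0095 to 0.042). Ccn1, an early matrix protein responsive to YAP, fell from 161 to 122 FPKM (-0.40, adjusted p = 0.016), losing the call without day 4 replicate 1 or 2 or day 7 replicate 1 or 2 (adjusted p up to 0.086).

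**Figure D4:**
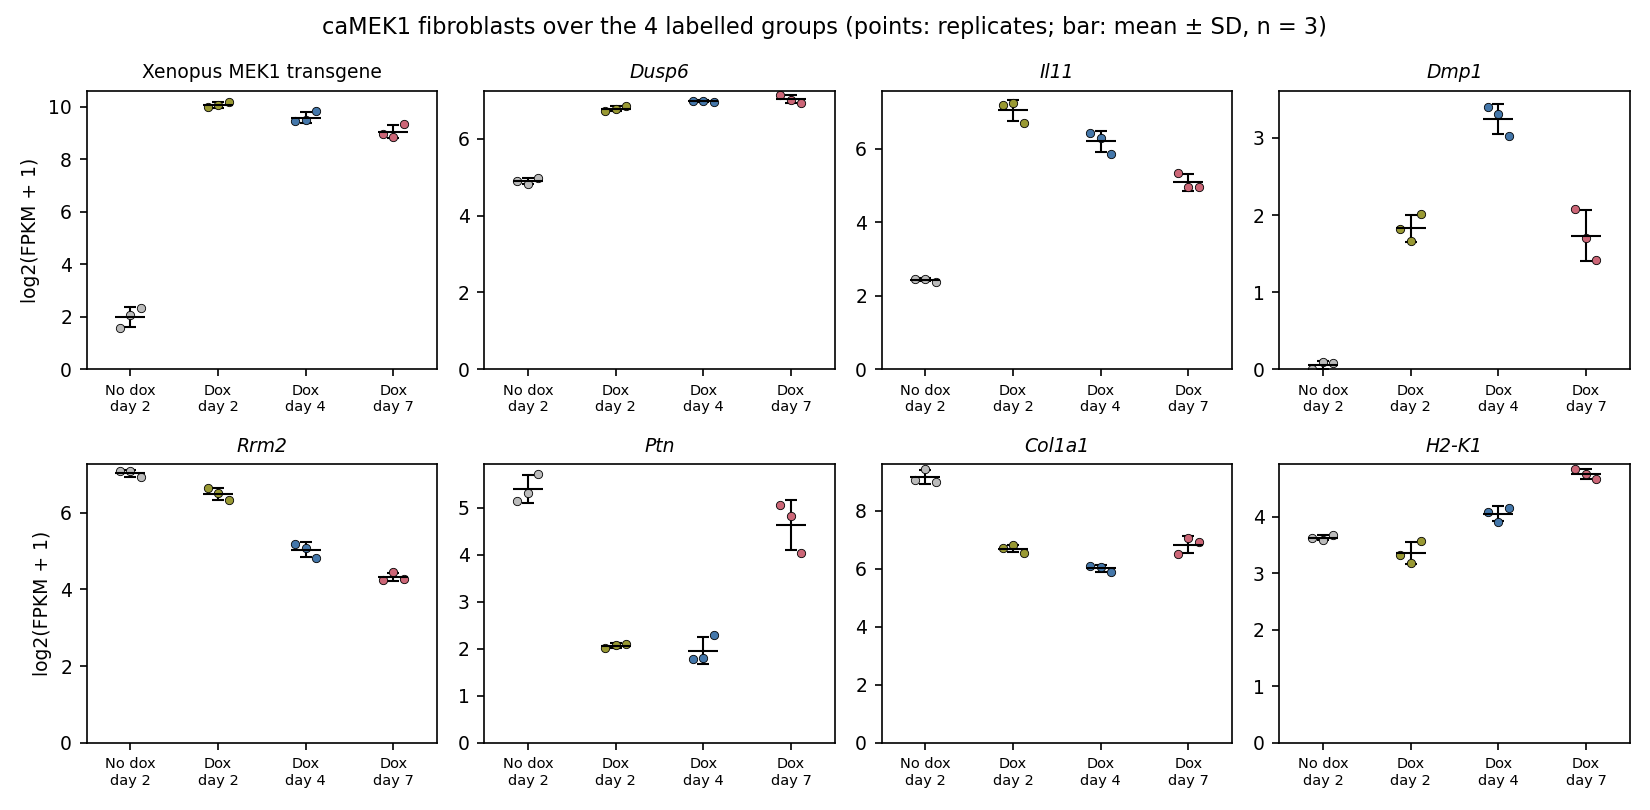
Levels (log2(FPKM + 1), vertical axis) of the transgene and 7 genes in untreated day 2 cells and at days 2, 4 and 7 of doxycycline, with points for the 3 replicates and bars for the mean ± SD. Ptn and Col1a1 drop from untreated to day 2 and are higher at day 7 than at day 4, Rrm2 is lower at each later day, and Dmp1 is highest at day 4.

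Genes of antigen presentation were higher at day 7. Of 11 MHC class I presentation genes tested 3 rose and none fell, beside 2.16% of all genes higher, and all 11 had a positive difference with a median of 0.34. With the block 6 rose, beside 8.05%. H2-K1, a classical heavy chain whose close copies may share its reads, read 16, 14 and 16.9 FPKM at day 4 and 27.8, 26.1 and 24.3 at day 7 (0.71 ± 0.14 SE, adjusted p = 0.0084). B2m, the light chain, went from 458, 412 and 437 to 673, 591 and 526 FPKM (0.45 ± 0.10, adjusted p = 0.022), and Nlrc5, the transactivator of MHC class I genes, from 4.64, 4.15 and 4.37 to 7.59, 7.62 and 5.67 (0.55 ± 0.10, adjusted p = 0.0046). For all 3 every day 7 library lay above every day 4 library. Leaving out day 4 replicate 2 ended the calls of H2-K1 and B2m, and leaving out day 4 replicate 1 or day 7 replicate 1 or 2 that of B2m (adjusted p up to 0.10). Of the 34 interferon response genes 32 were in the table and 17 were tested, with 1 that rose (Gbp2, 1.18 to 2.66 FPKM, adjusted p = 0.048) and a positive difference in all 17. With the block 5 rose, adding Ifit1, Isg15, Stat2 and Ifi204. Gbp2 passed neither with median scaling nor without any of 5 of the 6 libraries, and without day 7 replicate 3 the list had 4 rises.

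Complement genes were low at both days and rose. Of 8 tested 3 rose and none fell, beside 2.16% of all genes higher, with a median of 0.47. With the block 5 rose, beside 8.05%. C3, the central complement component, read 0.296, 0.202 and 0.178 FPKM at day 4 and 1.29, 1.85 and 1.09 at day 7 (0.96 ± 0.09 SE, adjusted p = 9.4e-06), and the protease C1s1, which has a close copy, 0.576, 0.427 and 0.464 and then 2.16, 2.80 and 1.34 (1.03 ± 0.15, adjusted p = 0.00066). Serping1, the C1 inhibitor, went from 0.894 to 2.40 FPKM (0.84, adjusted p = 0.025). C3 and C1s1 reached the filter of 1 FPKM at day 7 and not at day 4, so they may have entered the test through the group where they were high. With a filter at 5 FPKM the list had 0 rises. With 1 FPKM added before the logarithm, these differences understate the change of such low genes. C3 and C1s1 passed without any 1 library, and Serping1 only without day 7 replicate 3.

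Some of the largest rises were genes that macrophages also express. The chemokine Ccl6 went from 4.17, 4.96 and 6.05 FPKM to 16.5, 30.3 and 27.0 (2.05 ± 0.47 SE, adjusted p = 0.02) and the secreted inhibitor Wfdc17 from 1.16, 0.836 and 1.86 to 4.31, 12.5 and 6.86 (1.88 ± 0.35, adjusted p = 0.0055). In both, day 7 replicate 1 was the lowest of its group, as it was for the sum of the 12 macrophage markers given above. That sum rose from day 4 to day 7 within each replicate number, and its part in these results and in the MHC, complement and lysosome genes was not tested. In the caMKK6 fibroblasts the marker sum was 96.7 to 500 FPKM at day 4 and 86.9 to 731 at day 7, while Ccl6 was 2.08 to 8.18 and 1.04 to 10.7 FPKM. Ccl6 lost its call without day 4 replicate 1 or 2 or day 7 replicate 2 (adjusted p up to 0.092), and Wfdc17 kept it in all 6 fits.

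Further rises were of varied function. The acute phase inhibitor Serpina3n, a member of a family of close copies, went from 3.11, 2.34 and 1.85 to 11.2, 11.3 and 6.33 FPKM (1.6 ± 0.27 SE, adjusted p = 0.0026). Npy, a neuropeptide, went from 12.7, 13.2 and 21.3 to 62.2, 47.7 and 44.7 FPKM (1.67 ± 0.41, adjusted p = 0.029), while none of the 17 neuronal genes tested passed (1 rose with the block). Selenop, a selenium carrier, rose from 5.01, 6.69 and 4.71 FPKM to a mean of 14.8 (1.29, adjusted p = 0.04), and Pltp, which transfers phospholipids, from 1.27, 1.83 and 2.06 to 3.68, 4.98 and 7.38 (1.19, adjusted p = 0.019). For all 4 the 2 groups did not overlap, which was a condition for naming the largest rises. Serpina3n passed without any 1 library. Npy was lost without day 4 replicate 1 or 2 or day 7 replicate 1 or 2, Pltp without day 4 replicate 1 or 2 or day 7 replicate 2 or 3, and Selenop without any 1 of the 6 (adjusted p up to 0.13).

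Of 29 lysosome genes tested 6 rose and none fell, beside 2.16% of all genes higher, 26 had a positive difference, and the median was 0.23. With the block 16 rose, beside 8.05%. Npc1, which exports cholesterol from lysosomes, read 18, 17.6 and 19.5 FPKM at day 4 and 21.5, 25.0 and 24.4 at day 7 (0.35 ± 0.07 SE, adjusted p = 0.011). Hexa, a hexosaminidase subunit, went from 62.4, 62.6 and 67.2 to 80.5, 88.1 and 103 FPKM (0.49, adjusted p = 0.047), Ctsa, the protective cathepsin, from 55.6 to 68.8 (0.30, adjusted p = 0.037) and Mcoln1, the calcium channel of lysosomes, from 5.95 to 8.19 (0.40, adjusted p = 0.048). The groups did not overlap for any of the 4.  With median scaling 1 of the 29 rose, beside 1.45% of all genes, and without 1 library 0 to 3 did, none of them without day 4 replicate 1 or 2 or day 7 replicate 2. Of 15 autophagy genes Bnip3, a receptor of mitophagy, rose (9.34 to 14.7 FPKM, 0.60, adjusted p = 0.018), and its call was lost without day 4 replicate 1 or 3 or day 7 replicate 1 or 2 (adjusted p up to 0.089).

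Of 22 targets of p53 tested 4 rose and none fell, beside 2.16% of all genes higher, with a median of 0.22. With the block 11 rose, beside 8.05%. Bbc3, the pro-apoptotic protein PUMA, read 7.00, 5.66 and 6.12 FPKM at day 4 and 10.3, 11.3 and 9.63 at day 7 (0.65 ± 0.12 SE, adjusted p = 0.004). Trp53inp1, which promotes p53 activity and autophagy, went from 25.4, 24.6 and 22.3 to 38.4, 38.3 and 31.8 FPKM (0.56 ± 0.10, adjusted p = 0.0057). Both groups were separate and both calls held without any 1 library. The stress sensor Sesn2 (0.36, adjusted p = 0.022) and Ei24 (0.25, adjusted p = 0.045) rose less, and were lost without 4 and all 6 of the libraries in turn, Sesn2 for day 4 replicates 1 and 2 and day 7 replicates 2 and 3 (adjusted p up to 0.16). Cdkn1a, the p53 target that encodes the CDK inhibitor p21, was 164, 169 and 176 FPKM at day 4 and 183, 187 and 193 at day 7 and did not pass (0.15 ± 0.07, adjusted p = 0.29), although the groups did not overlap.

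None of the 7 CDK inhibitor genes passed. Cdkn2a, which encodes p16 and p19ARF, was the nearest, at 174, 197 and 178 FPKM on day 4 and 247, 274 and 242 on day 7 (0.48 ± 0.14 SE, adjusted p = 0.068, 0.012 with the block). All 3 day 7 values lay above all of day 4, and untreated cells had 35.6 FPKM. Cdkn2b, encoding p15, was 167, 221 and 189 FPKM and then 188, 223 and 193 (adjusted p = 0.87), the groups overlapping.

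Genes read as ERK output showed no called change. Of 20 tested none passed limma's test, the median was -0.078, and with the block 3 fell and none rose. In the same fit without adjustment 2166 of all genes had a p below 0.05. Dusp6, the ERK phosphatase, was 126, 126 and 123 FPKM at day 4 and 140, 128 and 121 at day 7 (0.05 ± 0.10 SE, adjusted p = 0.85), against 29.0 in untreated cells. Spry4, a feedback inhibitor of receptor signalling, was 47.9, 48.4 and 43.6 FPKM and then 39.6, 39.2 and 35.5 (-0.29 ± 0.11, adjusted p = 0.17, 0.048 with the block). Its groups did not overlap. Of 20 immediate early genes 3 fell and none rose, beside 1.45% of all genes lower. These were Nr4a1 (8.15 to 4.68 FPKM, adjusted p = 0.029), Egr3 (18.9 to 12.3, adjusted p = 0.028) and Fosb (2.02 to 1.25, adjusted p = 0.036). Each passed in 1 of the 6 fits that left out a library, Nr4a1 without day 4 replicate 3, Egr3 without day 7 replicate 3 and Fosb without day 7 replicate 1 (adjusted p up to 0.16), and with the block 3 other genes of the list rose, Klf4 (adjusted p = 0.0037), Dusp1 (0.026) and Btg2 (0.027).

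The stress lists held few changes, beside 2.16% of all genes higher and 1.45% lower (8.05% and 5.26% with the block). Of 23 integrated stress response genes 3 rose and none fell (6 and 2 with the block), namely the mTOR inhibitor Ddit4 (21 to 30.7 FPKM, 0.53, adjusted p = 0.029), Sesn2 and the transcription factor Atf5 (36.3 to 46.8 FPKM, 0.36, adjusted p = 0.016), while Atf4 itself was at 103 FPKM on both days. Of 20 NRF2 targets the glutathione transferase Gstm1, a member of a family of close copies, rose (8.71, 7.36 and 9.45 to 14.1, 15.6 and 14.8 FPKM, 0.74 ± 0.10 SE, adjusted p = 0.00047). It passed without any 1 library. The list ran the other way, with 15 of 20 differences negative and a median of -0.16. With the block 3 fell, Pgd, Gsr and Nqo1, the last a quinone reductase at 94.5 and 59.5 FPKM (-0.68, adjusted p = 0.074, 0.01 with the block). Atf5 was lost without day 4 replicate 1 or 2 or day 7 replicate 1, and Ddit4 without any 1 of the 6 (adjusted p up to 0.094). None of the 19 ER chaperones, 15 heat shock genes, 9 metallothionein and zinc genes or 6 IGF binding protein genes passed. With the block 2 ER chaperones (Pdia6 and Creld2) and 3 heat shock genes (Cryab, Hspd1 and Hsph1) fell.

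To see which changes differed from those of the other kinase over the same days, the change in caMKK6 fibroblasts was subtracted in the same fit. The human MKK6 transgene of the caMKK6 cells was itself not steady. It read 584, 1119 and 537 FPKM at day 4 and 206, 666 and 130 at day 7, lower within each replicate number. Its part in the differences, and that of the lower MEK1 transgene given above, was not tested. Of 11347 genes 26 differed (0.229%), 17 with a higher (0.15%) and 9 with a lower change (0.0793%) under caMEK1. With the block 121 differed (1.07%), 72 higher (0.635%) and 49 lower (0.432%). Some other settings gave fewer, with 7 at a pseudocount of 0.1 and 6 by voom on recovered reads. Limma with only the 12 libraries of this comparison gave 0, with 590 genes at an unadjusted p below 0.05. With no filter 55 differed. The caMKK6 cells had 340 changed genes between the same days (3.0%), 220 higher (1.94%) and 120 lower (1.06%), and the 2 sets share no library. Of the caMEK1 calls 14.4% were called in the same direction under caMKK6, which is 17.4% of the caMKK6 calls, with 38 genes higher and 21 lower in both and 2 opposite. Of the 409 genes 84.8% had the same sign under caMKK6, against 66.9% of all genes. No mitosis, replication, ribosome, MHC, lysosome, p53 target or fibrillar matrix gene was among the 26. Mitosis genes had a median of -0.26 under caMKK6 with none called. DNA replication genes had a median of -0.25 there with 3 falls, and ribosome biogenesis genes -0.15 with 2. Fibrillar matrix genes had 0.36 with 4 rises, and lysosome genes 0.21 with 3. The medians of MHC class I, complement and p53 target genes were 0.17, 0.21 and 0.097, with none called. Differences in size between the kinases were not tested for any list.

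Prl8a9, a prolactin-family hormone gene of the placenta, differed most. It read 7.05, 8.20 and 12.7 FPKM at day 4 and 33.7, 28.6 and 34.9 at day 7 under caMEK1 (1.73 ± 0.24 SE, adjusted p = 0.00066), and 13.9, 14.2 and 8.37 and then 6.96, 6.91 and 4.37 under caMKK6. The difference of the changes was 2.61 ± 0.34 (adjusted p = 0.0012), with all 3 libraries higher at day 7 in one line and all 3 lower in the other. Its relative Prl2a1 went from 3.06, 3.61 and 5.45 FPKM to a mean of 11.4 under caMEK1 (1.32 ± 0.21, adjusted p = 0.0017) and was at most 0.877 FPKM under caMKK6 (difference 1.5 ± 0.30, adjusted p = 0.04). The family has close copies on chromosome 13, so reads could be shared between them, and of the 8 prolactin and proliferin genes on the list, which lacks Prl2a1, Prl8a9 rose. With the block Prl2c2 rose as well (adjusted p = 0.01). Adm, the vasodilator adrenomedullin, was 15.2, 14.4 and 14.9 and then 15.8, 17.9 and 17.6 FPKM under caMEK1 (adjusted p = 0.46) and fell under caMKK6 from 92.1, 82.1 and 66.4 to 52.5, 50.2 and 34.1 (difference 1.00 ± 0.18, adjusted p = 0.018).

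In the other direction stood Dmp1 (difference -1.48 ± 0.18 SE, adjusted p = 0.0012) and Pthlh (-1.28 ± 0.24, adjusted p = 0.023). Dmp1 was at most 0.0723 FPKM and Pthlh at most 0.513 in the caMKK6 libraries of the 2 days, where a fall of this size could not have been seen. Olfm1, a secreted olfactomedin, fell under caMEK1 from 11.1, 10.8 and 12.7 to 7.66, 7.18 and 8.56 FPKM (-0.51 ± 0.08, adjusted p = 0.0012) and rose under caMKK6 from 2.79, 2.72 and 2.40 to 3.41, 3.49 and 3.48 (0.30 ± 0.08, adjusted p = 0.047), the difference being -0.80 ± 0.11 (adjusted p = 0.0018). The changes of C3 differed by 0.89 ± 0.13 (adjusted p = 0.0026), C3 being at most 0.139 FPKM in all 6 caMKK6 libraries.

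The caMKK6 day 4 replicate 2 library listed the Xenopus MEK1 transgene at 14.9 FPKM and the other 5 at 0, and without it 17 genes differed. The number was 13 without caMEK1 day 4 replicate 2, 15 without caMEK1 day 7 replicate 2 or caMKK6 day 4 replicate 1, 17 without caMKK6 day 7 replicate 1, 45 without caMEK1 day 7 replicate 3 and 65 without caMKK6 day 7 replicate 2. Prl8a9, Dmp1 and Olfm1 kept the difference without any 1 library and lost it with only the 12 libraries (adjusted p = 0.064 for each). Pthlh lost it without caMEK1 day 4 replicate 2 or 3, caMEK1 day 7 replicate 2 or caMKK6 day 4 replicate 1 or 3, Adm without caMEK1 day 4 replicate 2, day 7 replicate 2 or caMKK6 day 4 replicate 1 or 2, and Prl2a1 without any 1 of the libraries except caMEK1 day 4 replicate 3, caMKK6 day 4 replicate 3 and caMKK6 day 7 replicate 1 (adjusted p up to 0.14).

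**Figure D5:**
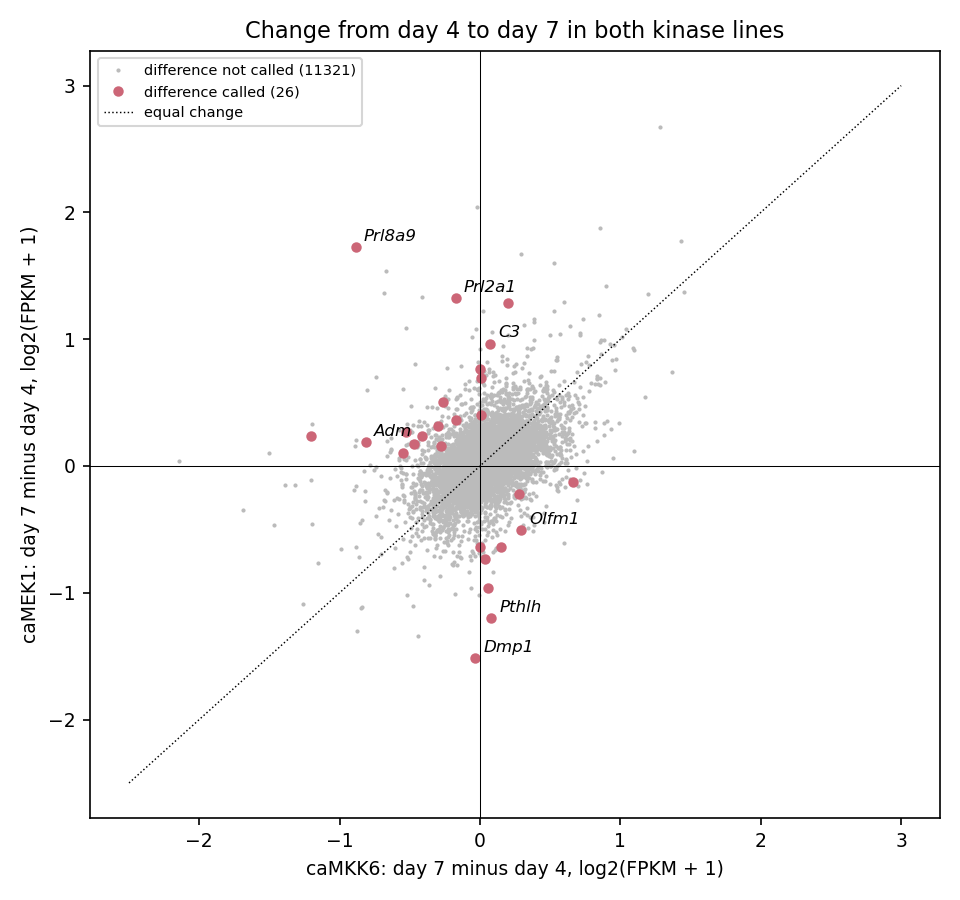
Change from day 4 to day 7 (log2(FPKM + 1)) under caMEK1 (vertical axis) against caMKK6 (horizontal axis) for 11347 genes, with the 26 whose changes differ in red and a dotted line of equal change. Prl8a9 lies at 1.73 against -0.89, and Dmp1 and Pthlh lie below 0 for caMEK1 near the vertical axis.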

How the data were processed

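The authors deposited gene levels of mouse fibroblasts as FPKM values in 1 table of 21863 entries, 4 of them transgenes or reporters. Per the submitters' processing notes, cutadapt 1.12 and STAR 2 were used with the mm10 genome, and the counter and annotation are not given in the sources used here. Per the labels' protocols, libraries were made from 100 ng of RNA.

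Groups came from the sample titles. From the values, log2(FPKM + 1) was fitted with limma 3.58.1 (R 4.3.3, empirical Bayes with trend) over 24 fibroblast libraries in 8 groups, which share 1 estimate of the spread on 16 residual degrees of freedom. The 11347 genes with at least 1 FPKM in at least 3 of these libraries were tested, two-sided, with Benjamini-Hochberg adjustment over all of them, at an adjusted p of 0.05. All adjusted p-values in the text are from this limma fit unless another is named. Adding 1 FPKM understates changes of low genes. The transgene was tested by exact permutation. Tables and plots used Python 3.11.15, pandas 2.3.3, numpy 2.4.6 and matplotlib 3.10.9.

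Replicate numbers pair the samples: deviations from the group means correlated between same-numbered day 4 and day 7 libraries at 0.623, 0.422 and 0.761 under caMEK1 and 0.543, 0.803 and 0.796 under caMKK6. Counts with this block are given beside the lists described. Reads were recovered as whole numbers with exon lengths of GENCODE M21 (21191 gene IDs matched), within 0.02 reads for values under 1000 reads, and gave the depths and an alternative fit with voom. On simulated data of 10945 genes for the day 7 against day 4 comparison, 12 of 10745 unchanged genes were called, and 27 of 34 with a log2 change of 0.5 and 19 of 33 with -0.5. The simulated libraries were drawn independently with a set spread and no effect of replicate number. Changes were placed only in genes with enough reads. These rates therefore need not hold for the real libraries, whose same-numbered replicates deviate together.

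Named genes were the kinase and senescence genes, in each direction the 12 called genes that changed most, given no overlap between days and 5 FPKM or more in the higher mean, up to 4 called members of each list, the 3 largest differences from caMKK6 in each direction, and the 4 genes of widest day 7 spread at 20 FPKM or more. Other genes named from the lists were chosen after their values were seen. Some genes that the rule or a count includes are not reported here. The members and the 42 gene lists were chosen with earlier results of these data known. Promoters are from RefSeq, and motifs were searched on both strands, counting overlaps. Other alternatives were another pseudocount, other filters, median and quantile scaling, fewer libraries in the fit and leaving out each library.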

Additional observations from a re-analysis of the deposited data

Results flagged for a closer look

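The change from day 4 to day 7 differed between the caMEK1 and caMKK6 fibroblasts, by limma's test of the difference itself, for 7 of the genes named. On the log2(FPKM + 1) scale, caMEK1 minus caMKK6, the difference was 2.61 for Prl8a9, 1.5 for Prl2a1, 1.0 for Adm and 0.89 for C3, and -1.48 for Dmp1, -1.28 for Pthlh and -0.8 for Olfm1. With the replicate block the adjusted p was 0.0007 for Prl8a9, 0.0082 for Prl2a1, 0.00077 for Adm, 0.0012 for C3, 0.00059 for Dmp1, 0.0017 for Pthlh and 0.00059 for Olfm1. Prl8a9 and Olfm1 moved in opposite directions in the 2 lines in all 3 libraries of each. Dmp1, Pthlh and C3 were near 0 in the caMKK6 libraries on both days. For Dmp1 and Pthlh a fall there could not have been seen, so their differences restate the caMEK1 falls. C3 reached the filter of 1 FPKM at caMEK1 day 7 and in none of the other groups of this comparison. It may thus have entered the test through the group where it was high.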

How the results depend on the processing

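For day 7 against day 4, 409 genes passed as reported, 240 with a pseudocount of 0.1, 240 with a filter at 5 FPKM, 723 with the 12 caMEK1 libraries alone, 69 with only the 6 libraries compared, and 118 to 387 without 1 library. For the difference from caMKK6, 26 passed as reported, 7 with a pseudocount of 0.1, 55 with no filter, 8 with a filter at 5 FPKM, 6 with voom on recovered reads, and 13 to 65 without 1 library. With only the 12 libraries of that difference limma called 0, with 590 genes at an unadjusted p below 0.05. The cause was not tested. With the replicate number as a block, 1510 and 121 genes passed. All 72 named genes called between the days also passed with the block. The transgene's log2 difference was -0.54 with the block (exact p 0.25, the smallest 3 pairs allow) and -0.43 to -0.69 without 1 library. No named gene reversed in any alternative, and 25 of the 72 passed without any 1 library. With median scaling 38.6% of calls were rises, against 59.9% as reported. Depth limits genes near 1 FPKM most, since they rest on few reads.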
